A study of Mus musculus with 15 samples.

Results

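Ceacam1, Ceacam2 and Ceacam10, 3 of the 20453 genes in the count table, encode carcinoembryonic antigen-related cell adhesion molecules. They were picked by name, with earlier results of the same libraries in view, in which Ceacam10 had stood out for its change against wtGMP. All 8 transcript entries of the 3 genes were followed, and each gene was represented by the entry with the highest mean count. RNA came from bone marrow cells of C57BL/6 mice that were depleted of cells bearing Cd5, Cd11b, B220, Gr-1 or Ter119 and then sorted. The labels describe a gate for granulocyte-macrophage progenitors (GMP) and one for long-term haematopoietic stem cells, without saying which library came through which gate. LTearly (4 libraries), LTlate (3) and BMTGMP (3) are called the MLL-AF9 groups here, and wtGMP (4) is the group they were set against. Their names are not spelled out. One text describes the mice for every library, wtGMP included: double heterozygous females of a line that carries a human MLL-AF9 cDNA, a leukaemia-causing fusion, placed in mouse stem cells of the A2Lox-cre kind and backcrossed to C57BL/6. It gives neither the treatment of each group nor the mouse ages, and it does not say whether the wtGMP mice carried the transgene. One further library has a title naming LTearly and a column naming LTlate, and it is shown apart.

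CEACAM proteins are immunoglobulin-like molecules at the cell surface that bind each other between neighbouring cells. CEACAM1 carries a short or a long cytoplasmic tail. The long tail holds tyrosine motifs that, once phosphorylated by Src family kinases, recruit the phosphatases SHP-1 (Ptpn6) and SHP-2 (Ptpn11). In mice, CEACAM1 on granulocytes dampens signalling of the receptor for granulocyte colony-stimulating factor (Csf3r) through STAT3. CEACAM2 is a close relative of CEACAM1 in mice with a narrower tissue range, and CEACAM10 is a secreted mouse protein made of variable-type immunoglobulin domains only.

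The 3 genes lie on mouse chromosome 7. In GRCm38 Ceacam10 spans chr7:24777206-24784657 on the plus strand, Ceacam1 chr7:25461707-25477603 on the minus strand and Ceacam2 chr7:25516042-25539857 on the minus strand. Exon numbers below come from GENCODE transcripts in that build, whereas the deposited counts were made on mm9. The Ceacam1 transcript of 2873 nt and the Ceacam2 transcript of 2844 nt each have an N domain exon, A1 and B domain exons that some transcripts skip, an A2 domain exon and a 53-nt exon that sets the longer tail. The A1 exon is shown because, with the B exon, it sets apart the transcript entries compared below and is nearly the same in both genes. It covers 285 nt at chr7:25474520-25474804 in Ceacam1 and chr7:25530471-25530755 in Ceacam2, both coding and on the minus strand, and is printed as the RNA runs. Capitals mark the 6 bases that differ.
Ceacam1 A1 exon: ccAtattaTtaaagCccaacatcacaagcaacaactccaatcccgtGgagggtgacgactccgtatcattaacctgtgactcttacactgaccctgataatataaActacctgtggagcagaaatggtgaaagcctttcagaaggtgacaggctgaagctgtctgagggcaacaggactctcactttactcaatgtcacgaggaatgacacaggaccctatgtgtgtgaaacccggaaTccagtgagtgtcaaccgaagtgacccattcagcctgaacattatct
Ceacam2 A1 exon: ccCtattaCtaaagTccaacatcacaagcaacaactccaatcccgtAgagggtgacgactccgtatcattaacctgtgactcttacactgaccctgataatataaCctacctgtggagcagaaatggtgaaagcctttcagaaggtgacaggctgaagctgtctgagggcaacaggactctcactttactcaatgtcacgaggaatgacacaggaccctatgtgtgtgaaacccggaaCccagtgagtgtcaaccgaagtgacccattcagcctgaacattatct
The A1 exons were thus 97.9% identical. The 255-nt B exon and the 53-nt tail exon did not differ at any base between Ceacam1 and Ceacam2. The N exon (360 nt) differed at 81 bases and the A2 exon (276 nt) at 37. Of all 36-nt stretches of that Ceacam1 transcript 46.8% also occurred in a Ceacam2 transcript, as did 39.2% of 50-nt and 25.1% of 100-nt stretches. Ceacam10 shared 6.02% of its 36-nt stretches, 4.6% of its 50-nt and 0% of its 100-nt stretches with Ceacam1. The read length is not given in the sources used here, so the part of the Ceacam1 and Ceacam2 counts that rests on shared reads cannot be fixed.

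The stretches before the transcription starts are shown because the 3 genes were higher together in the MLL-AF9 groups. They hold the 250 bases before each start (RefSeq, GRCm38.p6), 5′ to 3′ along the gene. They lie at chr7:25477626-25477875 (minus strand) for Ceacam1, chr7:25540005-25540254 (minus strand) for Ceacam2 and, from the first of 2 entries, chr7:24776917-24777166 (plus strand) for Ceacam10. Capitals mark CACGTG, an E-box.
Ceacam1 promoter: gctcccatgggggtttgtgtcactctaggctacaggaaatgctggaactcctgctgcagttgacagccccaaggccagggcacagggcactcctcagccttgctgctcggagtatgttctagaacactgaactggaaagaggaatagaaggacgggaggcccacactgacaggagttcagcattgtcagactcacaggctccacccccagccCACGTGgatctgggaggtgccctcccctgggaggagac
Ceacam2 promoter: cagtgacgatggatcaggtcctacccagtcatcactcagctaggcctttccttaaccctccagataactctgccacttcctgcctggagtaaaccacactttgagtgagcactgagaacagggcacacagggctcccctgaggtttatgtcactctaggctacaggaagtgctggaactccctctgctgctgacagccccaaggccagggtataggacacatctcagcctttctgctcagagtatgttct
Ceacam10 promoter: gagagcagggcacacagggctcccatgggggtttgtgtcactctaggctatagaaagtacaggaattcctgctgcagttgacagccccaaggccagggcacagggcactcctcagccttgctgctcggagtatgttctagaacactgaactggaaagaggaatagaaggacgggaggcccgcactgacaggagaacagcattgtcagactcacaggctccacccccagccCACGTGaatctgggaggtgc
The Ceacam1 and Ceacam10 stretches shared 222 of 232 aligned bases (95.7%). Ceacam1 and Ceacam2 shared 104 of 119 aligned bases (87.4%), and Ceacam2 and Ceacam10 shared 117 of 137 (85.4%). CACGTG, which reads alike on both strands, occurred once before Ceacam1, once before Ceacam10 and not before Ceacam2, and was found in 6.02% of 32851 promoter stretches of the same length. GAGGAA, the core of a site for the myeloid factor PU.1, was found once each before Ceacam1 and Ceacam10 and not before Ceacam2, against 23.3% of all stretches. The Ceacam2 stretch ends at bases that match the middle of the Ceacam1 and Ceacam10 stretches, ahead of CACGTG and GAGGAA there. Ceacam2 bases that would line up with these motifs thus lie outside its stretch and were not searched. Their absence is therefore no difference between the genes, and the offset also limits how many Ceacam2 bases align. TTNNGCAA, part of a C/EBP site, was before none of the 3 genes, against 9.56% of all stretches. These letters were searched on both strands, were chosen after the sequences had been seen, and are descriptions, not sites.

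Depth differed between groups. Counts on named genes came to 2696036 to 8695227 in LTearly, 11569325 to 15092528 in LTlate, 4555960 to 10712578 in BMTGMP and 2469452 to 6978682 in wtGMP. Levels below are CPM, counts relative to the scaled library size and not to gene length, so they compare libraries and not genes. Counting floors cover counting error only. Nothing in the labels says that libraries of a group came from separate mice, so p-values measure the spread between these libraries. The titles of the MLL-AF9 libraries end in codes that are not explained, and the fit did not use them. The code part after gr is shared by LTearly replicate 1 and LTlate replicate 3, and by BMTGMP replicates 1 and 2. LTearly replicate 3, LTlate replicate 2 and the library shown apart share another. LTearly replicate 4 stood apart and was the deepest of its group. Its mean correlation of log2 CPM over genes was 0.827 with the other LTearly libraries and 0.904 with the LTlate libraries, whereas the other LTearly libraries had 0.799 to 0.822 and 0.819 to 0.856. Its correlations with BMTGMP (0.870) and wtGMP (0.853) were also the highest of the 4 LTearly libraries. Genes of the markers used in the GMP gate differed in direction. Cd34 averaged 32.3 CPM in LTearly, 117 in LTlate and 4.75 in BMTGMP, against 250.2 in wtGMP, and Kit likewise averaged most in wtGMP. The Fc receptor gene Fcgr3 averaged 319.5 CPM in LTearly, 432 in LTlate and 209 in BMTGMP, against 259 in wtGMP. The stem cell gate's Ly6a (Sca-1) stayed at or below 16.3 CPM in every LTearly library and at or below 2.86 CPM in every other one.

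Ceacam1 had the most counts of the 3 genes and was higher in every MLL-AF9 library than in every wtGMP library. Its levels were 415, 412, 380.1 and 379 CPM in LTearly, 622, 489 and 443 CPM in LTlate, 165, 257 and 223 CPM in BMTGMP, and 45.5, 41.0, 45.7 and 61.2 CPM in wtGMP. The means were 396.7 ± 19.6 CPM (SD, n = 4) in LTearly, 517.8 ± 93.2 (n = 3) in LTlate, 215 ± 46.2 (n = 3) in BMTGMP and 48.4 ± 8.81 (n = 4) in wtGMP. No pair of groups overlapped, and the order was LTlate, LTearly, BMTGMP and wtGMP. Against wtGMP the fitted fold was 8.21 in LTearly, 10.7 in LTlate and 4.45 in BMTGMP, or 3.04 ± 0.19, 3.42 ± 0.20 and 2.15 ± 0.19 on the log2 scale (SE). These comparisons share the same wtGMP libraries and gave rise to the choice of genes, so they are descriptions without a test.

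Ceacam2 showed the same order of groups at lower counts. Its levels were 109, 125, 129 and 99.9 CPM in LTearly, 158, 114 and 97.4 CPM in LTlate, 39.6, 75.1 and 65.7 CPM in BMTGMP, and 12.4, 7.17, 8.51 and 13.4 CPM in wtGMP. LTearly and LTlate overlapped, both lay above BMTGMP, and all lay above wtGMP. The means were 115.7 ± 13.6 CPM in LTearly (n = 4), 122.8 ± 31.1 in LTlate (n = 3), 60.1 ± 18.4 in BMTGMP (n = 3) and 10.4 ± 2.99 in wtGMP (SD, n = 4). The fitted fold over wtGMP was 11.0 in LTearly, 11.7 in LTlate and 5.73 in BMTGMP, or 3.46 ± 0.27, 3.55 ± 0.28 and 2.52 ± 0.28 on the log2 scale.

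Ceacam10 was found in all 10 MLL-AF9 libraries and was at a rounded count of 0 in all 4 wtGMP libraries. The single deposited value above 0 in wtGMP was 0.333 of a read, in replicate 1. Its levels were 17.6, 20.6, 22.4 and 6.83 CPM in LTearly, 9.08, 5.14 and 3.84 CPM in LTlate, and 2.34, 16.6 and 8.31 CPM in BMTGMP. The means were 16.9 ± 6.98 CPM (SD, n = 4), 6.02 ± 2.73 (n = 3) and 9.1 ± 7.18 (n = 3) in LTearly, LTlate and BMTGMP. LTearly replicate 4 was the low library of its group, and BMTGMP libraries spread more widely around their mean than the LTlate ones. Over the groups Ceacam10 had 273, 224 and 193 counts in LTearly, LTlate and BMTGMP. A floor of 3 counts over all wtGMP libraries is worth 0.176 CPM, which makes Ceacam10 at least 80.4-fold higher in LTearly, 33.5-fold in LTlate and 47.3-fold in BMTGMP. Without wtGMP replicate 1, the deepest of its group, these bounds were 48.5, 19.6 and 28.1. Without BMTGMP replicate 2 the bound of BMTGMP was 23.8, and without BMTGMP replicate 1 it was 77.2.

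**Figure D1:**
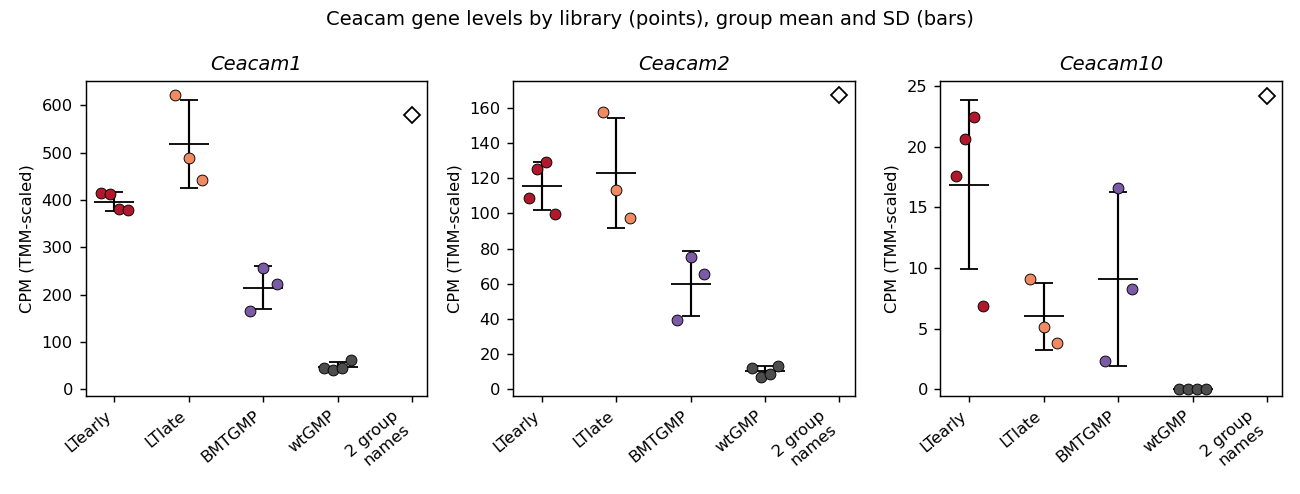
Levels of Ceacam1, Ceacam2 and Ceacam10 in CPM (vertical axis, linear) by group: points are libraries, horizontal lines group means, bars SD, and the open diamond is the library with 2 group names, which entered no mean. Ceacam1 lay between 165 and 622 CPM in the MLL-AF9 groups and between 41.0 and 61.2 CPM in wtGMP, and Ceacam10 was at 0 in all 4 wtGMP libraries.

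All 3 genes were thus higher without overlap in each MLL-AF9 group. The same held for 11.1% of the 14542 genes tested in LTearly, 15.3% in LTlate and 10.8% in BMTGMP, where "tested" means passing a filter on low counts. Since Ceacam10 passed that filter through the MLL-AF9 groups alone, its difference from wtGMP was bound to appear. The shares of genes called higher at an adjusted p below 0.05 were 10.7% in LTearly, 7.65% in LTlate and 4.35% in BMTGMP against wtGMP, and those called lower 9.46%, 3.01% and 2.17%. The median log2 change of all genes tested was 0.19, 0.01 and 0.06 in the same groups. In bulk RNA, fewer cells of a type and less RNA per cell cannot be told apart.

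Between the MLL-AF9 groups, Ceacam1 and Ceacam2 were higher in both LT groups than in BMTGMP, and Ceacam10 passed the test in no pair. These pairs were compared with edgeR's quasi-likelihood test, 2-sided, with Benjamini-Hochberg adjustment over all 14542 genes. Ceacam1 was 1.85-fold higher in LTearly than in BMTGMP (log2 0.88 ± 0.19, adjusted p = 0.00434) and 2.41-fold higher in LTlate than in BMTGMP (log2 1.27 ± 0.20, adjusted p = 0.000404). Without BMTGMP replicate 1, the lowest of its group, the LTearly difference was 0.72 with an adjusted p of 0.0547, while the LTlate difference passed with any 1 library of either group left out (adjusted p at most 0.0057). Ceacam2 was 1.93-fold higher in LTearly than in BMTGMP (log2 0.94 ± 0.27, adjusted p = 0.0313) and 2.05-fold higher in LTlate than in BMTGMP (log2 1.03 ± 0.28, adjusted p = 0.0491). Neither Ceacam2 call held throughout. The LTearly call was lost without LTearly replicate 2 (log2 0.90) or 3 (0.91) and without BMTGMP replicate 1 (0.71) or 4 (0.996), with adjusted p between 0.0569 and 0.215. The LTlate call was lost without LTlate replicate 2 (0.82) or 3 (1.09) and without BMTGMP replicate 1 (0.80) or 4 (1.10), with adjusted p between 0.0978 and 0.366, and with the other library scaling (adjusted p = 0.0656). The share of all genes called higher was 3.27% for LTearly against BMTGMP and 1.64% for LTlate against BMTGMP, with 3.03% and 0.447% called lower. Groups without overlap in the direction of Ceacam1 and Ceacam2 were found for 7.49% and 11.3% of all genes. For LTearly against BMTGMP 476 genes were higher and 441 lower, or 574 and 330 with median-ratio scaling. The median of all genes tested was 0.07 and -0.04 in these pairs.

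Ceacam1 was 0.38 ± 0.18 lower on the log2 scale in LTearly than in LTlate (adjusted p = 0.397), with no overlap between the groups, as was the case for 6.6% of all genes. Its 95% interval ran from -0.75 to -0.02. Ceacam2 differed by -0.09 ± 0.26 (adjusted p = 0.949, 95% interval -0.60 to 0.42), and by 0.12 without LTlate replicate 2. Ceacam10 was 1.48 ± 0.80 higher in LTearly than in LTlate, a fold of 2.79 (adjusted p = 0.474, interval -0.08 to 3.04), and LTearly replicate 4 lay among the LTlate libraries. Without that library the difference was 1.76 (adjusted p = 0.310). Of the 3 genes edgeR thus called 0 between LTearly and LTlate, with 1 (Ceacam1) at an unadjusted p below 0.05 and 0 called by DESeq2, while 0.124% of all genes were called higher and 0.138% lower. That was 18 genes higher and 20 lower, or 17 and 10 with median-ratio scaling. Ceacam10 differed by 0.89 ± 0.78 between LTearly and BMTGMP (adjusted p = 0.640, interval -0.64 to 2.42) and by -0.59 ± 0.82 between LTlate and BMTGMP (adjusted p = 0.928, interval -2.20 to 1.01), intervals that include changes in either direction. Without BMTGMP replicate 2 that last difference was 0.19.

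**Figure D2:**
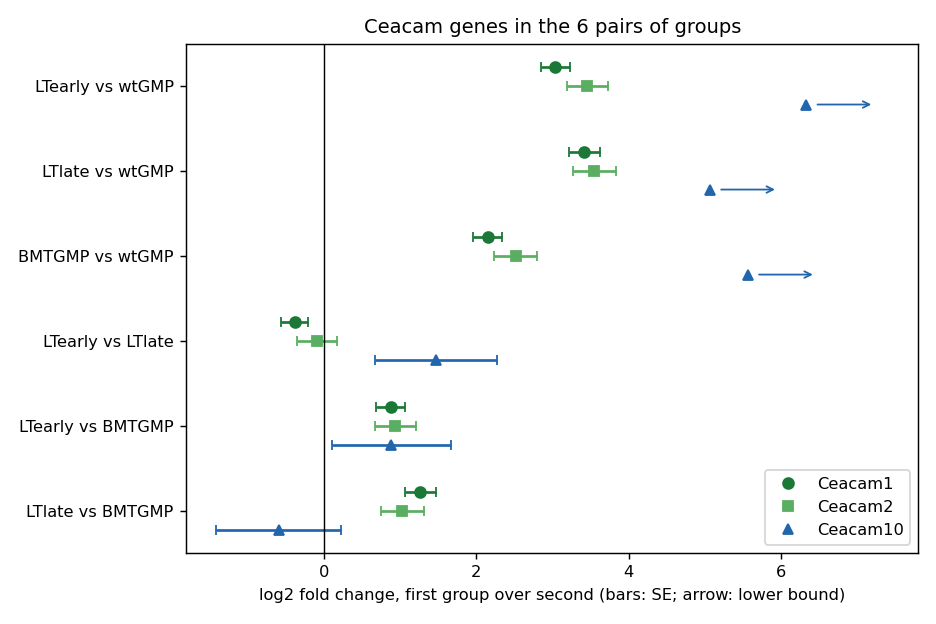
Log2 fold changes of the 3 genes in the 6 pairs of groups (horizontal axis, first group over second): markers are fitted values with SE bars, and triangles with arrows are lower bounds for Ceacam10, which had no counts in wtGMP. The Ceacam1 and Ceacam2 markers lie close together in every pair, at 3.04 and 3.46 for LTearly against wtGMP, while the Ceacam10 bars are the widest.

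How far the transcript entries and the shared exons shape these values was read from the 8 entries. The 4 Ceacam1 entries moved together: in LTlate replicate 2 they held 7541, 7437, 6910 and 6806 counts, and the lowest entry held 82.4% to 95.8% of the highest in the 14 libraries. The 3 Ceacam2 entries differed more, with 1911, 1383 and 1276 counts in LTlate replicate 2 and a lowest entry at 48.1% to 93.4% of the highest. Entries that include the A1 and B exons were set against those that skip them. Their difference is taken as a net value, since the GENCODE transcripts of paired entries also differ in their first and last exons. For Ceacam1 that excess was 112 to 255 counts in LTearly, 452 to 706 in LTlate, 98 to 280 in BMTGMP and 1 to 14 in wtGMP. For Ceacam2 it was 87.5 to 255, 397 to 614, 78 to 232 and 1 to 16 counts in the same order. The excess was thus of similar size for both genes: the Ceacam2 value was 72.6% to 160% of the Ceacam1 value (median 97.3%), and in 4 of 14 libraries they were equal within 0.0001 of a read. Both pairs of Ceacam1 entries gave the same excess in 14 of 14 libraries, and Ceacam2 has no second pair.

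Over the whole entry, the Ceacam2 count was 26.3% to 33.9% of the Ceacam1 count in LTearly, 22% to 25.3% in LTlate, 23.9% to 29.4% in BMTGMP and 17.5% to 27.2% in wtGMP. The GENCODE transcripts matched to these entries are of similar length, 2873 nt for Ceacam1 and 2844 nt for Ceacam2. The shares that follow rest on these transcripts, although their ends may not be those counted. They also take reads to be spread evenly along each transcript, which was not tested. The A1 and B exons make up 540 of the 2873 nt, while their net excess was 0.735% to 14.2% of the Ceacam1 entry. If Ceacam2 had no reads of its own and received an even share of each read in common with Ceacam1, its count would be 30.5% of the Ceacam1 count for 36-nt reads, 24.4% for 50-nt reads and 14.4% for 100-nt reads. The observed median over 14 libraries was 25.8%, with single libraries from 17.5% to 33.9%. How much of the Ceacam2 count belongs to Ceacam2 was not tested, and the Ceacam2 changes above are uncertain in that sense. The Ceacam10 count was 1.8% to 5.9% of the Ceacam1 count in LTearly and 0.859% to 1.45% in LTlate. It was 1.41% to 6.51% in BMTGMP and 0% to 0.106% in wtGMP. Of the 36-nt stretches of Ceacam1, 1.8% also occurred in Ceacam10. How much of the Ceacam10 count rests on shared reads was not tested either. The long tail exon also differed little in counts: Ceacam1 entries with it exceeded those without it by -19 to 139 counts in LTearly, -19 to 104 in LTlate, -21 to 68 in BMTGMP and 0 to 12 in wtGMP. These too are net values, as the negative ones show, so no share of long-tailed transcripts was drawn from them.

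**Figure D3:**
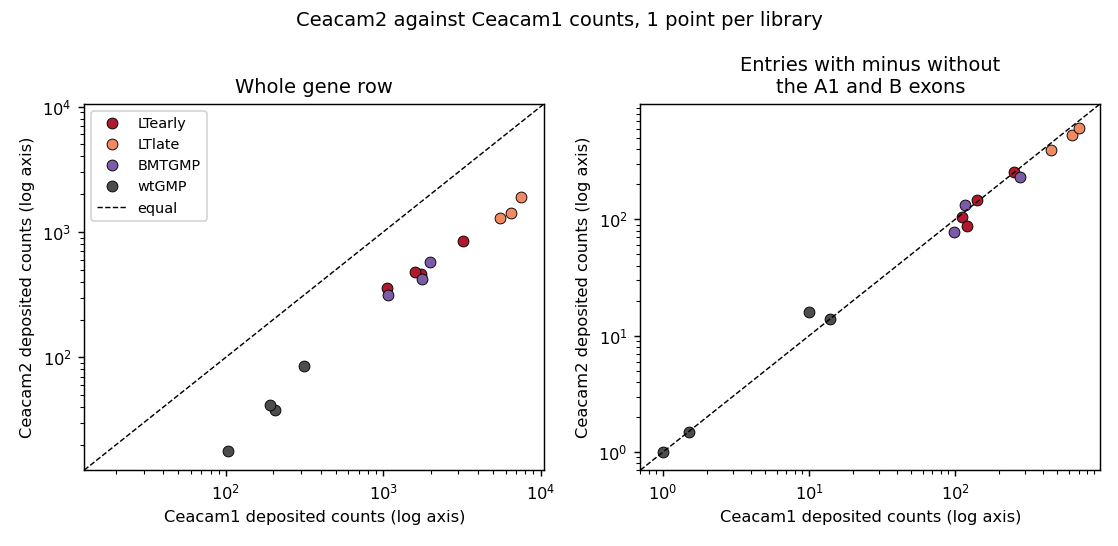
Deposited counts of Ceacam2 (vertical, log axis) against Ceacam1 (horizontal, log axis), 1 point per library coloured by group, for the whole entry (left) and the excess of entries with the A1 and B exons over those without (right); the dashed line marks equal counts. On the left every point lies below the line, at 17.5% to 33.9% of Ceacam1, and on the right the points lie along it, at 72.6% to 160%.

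Genes linked to CEACAM1 signalling were followed as a list of 20, all of which were tested. Against wtGMP, 9 rose in LTearly, 7 in LTlate and 4 in BMTGMP, and 0 fell by edgeR and by DESeq2. At an unadjusted p below 0.05, Calm3 and Src were lower in LTearly, Csf3r in LTlate and Fyn in BMTGMP. Of all genes tested, 10.7%, 7.65% and 4.35% were called higher in these groups and 9.46%, 3.01% and 2.17% lower. The list was chosen with results against wtGMP known. Its counts, and the adjusted p of its genes against wtGMP here and below, thus describe it and are no independent support. Of the 20, Fgr and Egfr had under 10 counts in every wtGMP library and passed the filter on low counts through the other groups. Among the other 18 genes 8, 6 and 3 rose. The list's median log2 change was 0.98 in LTearly, 0.25 in LTlate and 0.43 in BMTGMP, beside 0.19, 0.01 and 0.06 for all genes. Among the Src family kinases, Lyn averaged 420.2 ± 152 CPM in LTearly, 437.5 ± 87.5 in LTlate, 241.5 ± 46.8 in BMTGMP and 112 ± 12.2 in wtGMP (SD, n = 4, 3, 3 and 4). Lyn rose in each (log2 1.91 ± 0.21, 1.97 ± 0.22 and 1.11 ± 0.22 against wtGMP, adjusted p at most 0.00114). Fyn went the other way without being called. It averaged 6.82 ± 7.59, 12.6 ± 6.09 and 2.4 ± 2.71 CPM in LTearly, LTlate and BMTGMP, against 15.2 ± 8.96 in wtGMP (log2 -1.16, -0.27 and -2.69). Fgr, a myeloid member of the family, averaged 170.9 ± 93.0, 77.0 ± 20.0 and 34.7 ± 5.13 CPM in LTearly, LTlate and BMTGMP, against 0.152 ± 0.176 CPM in wtGMP. With only 3 Fgr counts over the wtGMP libraries, the ratios of pooled counts were 801 (exact 95% interval 274 to 3889), 439 (150 to 2129) and 195 (66.6 to 949).

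Ptpn6, the phosphatase that binds the long CEACAM1 tail, averaged 1008 ± 174 CPM in LTearly, 1037 ± 81.1 in LTlate, 721 ± 162 in BMTGMP and 495 ± 45.8 in wtGMP. It rose in LTearly (log2 1.03 ± 0.16, adjusted p = 3.54e-05) and LTlate (1.07 ± 0.17, adjusted p = 8.28e-05), and its BMTGMP change was 0.54 ± 0.17 (adjusted p = 0.0569). Ptpn11 differed from wtGMP by 0.21, -0.02 and 0.11 in LTearly, LTlate and BMTGMP, none of them called. Flna, the actin-binding filamin A that the CEACAM1 tail can bind, rose by 1.38 ± 0.15, 1.79 ± 0.16 and 0.98 ± 0.15 in the same groups. Syk, a tyrosine kinase of immune receptors, rose in LTearly (1.18 ± 0.16) and LTlate (0.88 ± 0.17). Src itself had 0 counts in LTearly and 49 over the wtGMP libraries, which ran from 0 to 6.5 CPM. By the floor of 3 counts its pooled level was at least 18.5-fold higher in wtGMP, although the lowest wtGMP library was as empty as LTearly. The Src difference was not called (adjusted p = 0.0903).

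Csf3r, the receptor that CEACAM1 dampens in mouse granulocytes, was the 1 gene of the list called between LTearly and LTlate. It averaged 162 ± 24.9 CPM in LTearly, 56.7 ± 12.6 in LTlate, 65.5 ± 7.19 in BMTGMP and 84.4 ± 21.2 in wtGMP, and the lowest LTearly library (133.7 CPM) lay above the highest of any other group (109 CPM). It was 1.51 higher on the log2 scale in LTearly than in LTlate (adjusted p = 0.00602). Without LTlate replicate 3 none of the 20 genes was called in that pair, and without LTearly replicate 4 there were 4. LTearly against BMTGMP had 5 genes higher (among them Fgr 2.30, Csf3r 1.31, Lyn 0.80 and Syk 0.68), which fell to 3 without BMTGMP replicate 2 and to 2 without BMTGMP replicate 4. LTlate against BMTGMP had 1, Flna (0.81), or 2 without LTlate replicate 4 or without BMTGMP replicate 1. The list's medians were 0.20, 0.56 and 0.29 in these 3 pairs, beside 0.07, 0.07 and -0.04 for all genes. Called higher in the same pairs were 0.124%, 3.27% and 1.64% of all genes tested.

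**Figure D4:**
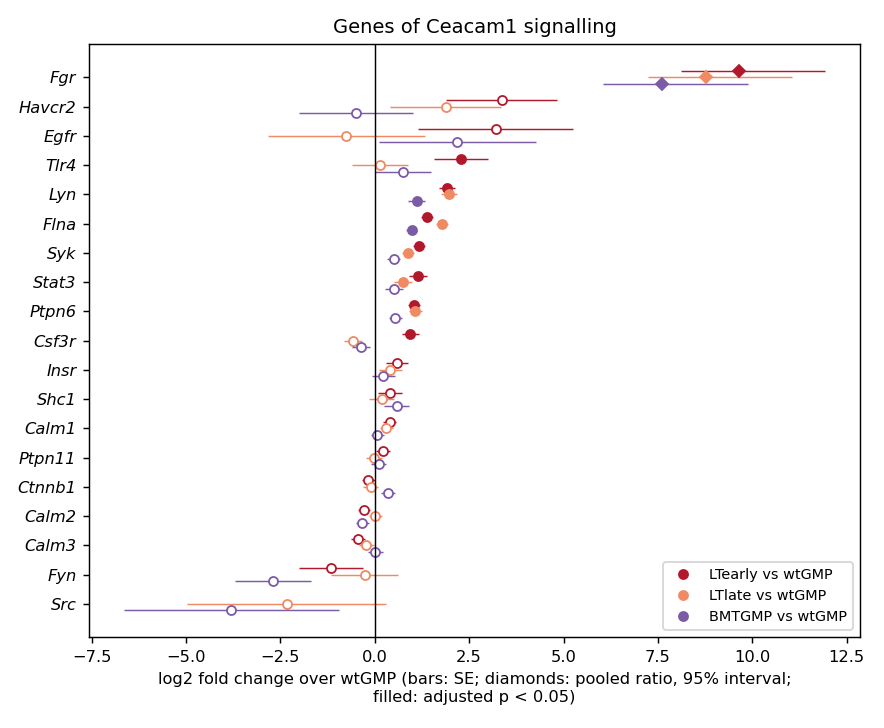
Log2 change over wtGMP (horizontal axis) of 19 CEACAM1 signalling genes in LTearly, LTlate and BMTGMP: circles are fitted values with SE bars, filled where the adjusted p is below 0.05, and diamonds for Fgr are ratios of pooled counts with 95% counting intervals. Filled points lie to the right of 0, and Src in LTearly, which had 0 counts, is not drawn.

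Late neutrophil genes in sum, like the Ceacam genes, were higher in each MLL-AF9 group than in wtGMP. This was so although the depletion step removes cells bearing Cd11b or Gr-1. Of 19 such genes on a marker list, 18 were in the table, and their summed level was 22170 to 33770 CPM in LTearly, 7491 to 15890 in LTlate, 2365 to 10490 in BMTGMP and 166 to 330 in wtGMP, with no gene of the list at 0 in any of the groups. Against wtGMP, 18 of 18 rose in LTearly (median log2 7.49), 16 in LTlate (6.03) and 14 in BMTGMP (5.24), on a list also chosen with such results known. Of all genes tested, 10.7%, 7.65% and 4.35% were called higher there. Mmp9, Itgb2l, Stfa2l1 and Mmp25 had only 2 to 8 counts over all wtGMP libraries, passed the filter through the other groups and were bound to differ. Among the other 14 genes 14, 12 and 10 rose. Itgam, the Cd11b chain itself, averaged 1304 ± 337 CPM in LTearly, 1310 ± 313 in LTlate, 473 ± 63.0 in BMTGMP and 57.0 ± 18.7 in wtGMP. Olfm4, a granule protein gene of a subset of neutrophils, averaged 672 ± 199, 363 ± 163 and 107 ± 26.1 CPM in the MLL-AF9 groups in the same order, against 2.69 ± 1.76 in wtGMP. Between LTearly and BMTGMP 10 of the 18 were higher (Itgam by 1.46 ± 0.25, adjusted p = 0.00121), but between 2 and 5 without LTearly replicate 1, 2 or 3 or without BMTGMP replicate 1 or 4, 5 without the filter on low counts, and 4 with only the 2 groups fitted or with the doubly named library in LTlate. Between LTlate and BMTGMP 2 were higher (Itgam and Olfm4), or 1 without LTlate replicate 2 or 3 or without BMTGMP replicate 1 or 4, and between LTearly and LTlate 0 were called by edgeR, with 10 at an unadjusted p below 0.05 and 3 by DESeq2. Over all genes tested, 3.27% were called higher for LTearly against BMTGMP, 1.64% for LTlate against BMTGMP and 0.124% for LTearly against LTlate.

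Of the 3 MLL-AF9 groups, LTearly had the highest late neutrophil sums, but Ceacam1 was highest in LTlate. Within BMTGMP, replicate 2 had both the highest neutrophil sum (10490 CPM) and the highest level of each Ceacam gene, and replicate 1 had the lowest of both. LTlate replicate 2 was likewise the highest of its group for the sum (15890 CPM) and for all 3 genes. In LTearly, replicate 3 had the highest sum, Ceacam2 and Ceacam10 but Ceacam1 was highest in replicate 1, and replicate 4 was the lowest of all 4 measures. In wtGMP, replicate 3 had the highest sum, while Ceacam1 and Ceacam2 were highest in replicate 4. Other marker sums moved too. Monocyte and macrophage genes summed to 6982 to 9106 CPM in LTearly, 4289 to 6213 in LTlate, 1727 to 2791 in BMTGMP and 1056 to 1334 in wtGMP, with C1qb at 0 in BMTGMP and wtGMP. Lyz2 averaged 5060, 3616, 1535 and 481 CPM of this in the same order, and Cybb 1941, 1170, 332 and 185 CPM. Of 10 genes tested, 5 rose and 1 fell in LTearly, 4 rose and 0 fell in LTlate, and 3 rose and 0 fell in BMTGMP. Their median log2 changes were 1.46, 0.75 and -0.14. Csf1r and Ccr2 averaged 81.2 and 97.6 CPM in BMTGMP, against 186 and 192 CPM in wtGMP. The sum of 12 primary granule and GMP genes was lower, with 1734 to 7091 CPM in LTearly, 2123 to 2577 in LTlate and 8661 to 12180 in BMTGMP, against 20010 to 23430 in wtGMP, of which Mpo alone, the myeloperoxidase gene, made up 16000 to 19270 CPM. Gene by gene, 7 of the 12 fell and 0 rose in LTearly, 4 fell and 2 rose (Fcgr3 and Fcgr2b) in LTlate, and 2 fell and 1 rose (Gfi1) in BMTGMP. For this list and the monocyte list, the shares of all genes called higher were 10.7%, 7.65% and 4.35%. Those called lower were 9.46%, 3.01% and 2.17%. Eosinophil, basophil and mast cell genes summed to 14.5 to 47.5 CPM in LTearly, 97.3 to 350.6 in LTlate, 5.33 to 12.2 in BMTGMP and 163.8 to 293 in wtGMP, with Epx, Prss34, Cpa3 and Fcer1a at 0 in BMTGMP and Prss34 and Fcer1a at 0 in LTlate. The LTlate sum rested largely on Prg2, at a mean of 196.6 CPM against 108.7 in wtGMP. Prg3 and Cpa3 also averaged more in LTlate than in wtGMP, and Epx, Mcpt8, Prss34, Ms4a2 and Fcer1a less. The list's median log2 change in LTlate was -1.33. Markers of stem cells, B cells, T and NK cells, red cells, megakaryocytes, endothelium and epithelium or stroma each summed to at most 240.2 CPM in any grouped library. The part of these other cells in the Ceacam levels was not tested.

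**Figure D5:**
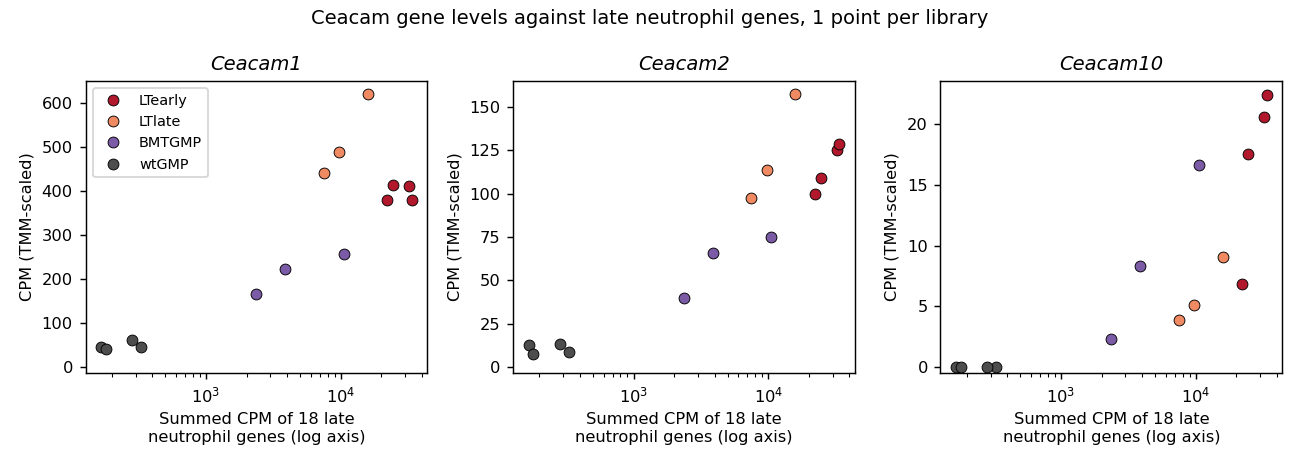
Levels of each Ceacam gene in CPM (vertical axis, linear) against the summed CPM of 18 late neutrophil genes (horizontal log axis), 1 point per library coloured by group. The LTlate points (7491 to 15890 CPM) lie left of the LTearly points (22170 to 33770 CPM) and above them for Ceacam1.

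The genes whose pattern over the 14 libraries was most like each Ceacam gene were found by Pearson correlation of log2 CPM. It is a description, since all points share the same libraries and the same steps between groups. For Ceacam10, at a rounded count of 0 in all 4 wtGMP libraries, the wtGMP points are set by the prior count. Fgr and Stfa2l1, with 3 and 2 counts over the wtGMP libraries, lie near the same floor. Closest to Ceacam1 were Apobr, a lipoprotein receptor gene (0.987), Itgam (0.984), the kinase gene Stk10 (0.977), Itgb2, which encodes the partner chain of Cd11b (0.977), and the stefin gene Stfa2l1 (0.971). Closest to Ceacam2 were Apobr (0.990), Lcn2, a granule lipocalin (0.988), Itgam (0.986), Fgr (0.978) and Stk10 (0.974). Closest to Ceacam10 were Cyba, which encodes a subunit of the phagocyte oxidase (0.986), the neutrophil surface gene Cd177 (0.977), C130026I21Rik (0.974), the lactoferrin gene Ltf (0.974) and the cathelicidin gene Camp (0.973). Ceacam1 correlated with Ceacam2 at 0.991 and with Ceacam10 at 0.912, and Ceacam2 with Ceacam10 at 0.943. Since Ceacam1 and Ceacam2 may share reads, their correlation and the genes close to both are not independent observations. Apobr averaged 576 ± 123 CPM in LTearly, 569.9 ± 164 in LTlate, 227 ± 36.3 in BMTGMP and 38.2 ± 9.21 in wtGMP. Cyba averaged 179 ± 40.8, 138 ± 10.7 and 134 ± 39.5 CPM in the MLL-AF9 groups in the same order, against 37.4 ± 2.94 in wtGMP.

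The rest of the family stayed low in CPM, and Ceacam10, at 3.84 to 9.08 CPM in LTlate, lay within the same range. The table holds 25 other genes named Ceacam or Psg (pregnancy-specific glycoproteins, placental relatives), and 24 of them reached 1 CPM in some library. These were Ceacam3, Ceacam5, Ceacam9, Ceacam11 to Ceacam16, Ceacam18 to Ceacam20, Psg16 to Psg19, Psg21 to Psg23 and Psg25 to Psg29. The highest value was 15.6 CPM for Psg29 in LTearly replicate 3, followed by 12.8 CPM for Ceacam19 in LTearly replicate 2. Ceacam20 reached 10.4 CPM in LTearly replicate 2 and Ceacam16 6.35 CPM in LTlate replicate 2. Of the 25, 13 passed the filter and 0 were called by edgeR in any of the 6 pairs. DESeq2 called 1, Psg25 in LTearly against wtGMP, and edgeR's unadjusted p was below 0.05 for 4 of them in that pair (Ceacam12, Ceacam14, Ceacam16 and Psg18) and for 1, Ceacam16, in each of LTlate and BMTGMP against wtGMP. Near-identical relatives may share reads here as well.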

How the data were processed

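Bulk RNA sequencing libraries of sorted bone marrow cells were used as 1 deposited table of 28847 RefSeq transcripts. Per the file headers and the submitters' processing notes, the authors mapped reads to mm9, kept reads with up to 100 hits and named Bowtie 0.9.9.1. The deposited values are expected counts, of which 13.7% are not whole (tolerance 1e-06), and no depth scaling was found. The read length, counter and strand setting are not given in the sources used here. Of the 16 value columns 1 matched no sample and was not used.

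Of the transcripts, 26092 were matched to symbols (25973 in a RefSeq table of GRCm38.p6, 119 in GENCODE); the rest held 3.51% to 4.16% of each library. Each of 20453 genes was represented by the entry highest on average, rounded to a whole number. No 2 of the 15 libraries had identical counts (highest rank correlation 0.923). The 14 grouped libraries entered 1 fit with edgeR 4.0.16 under R 4.3.3 (TMM, filterByExpr, robust quasi-likelihood, 2-sided), with Benjamini-Hochberg adjustment over 14542 genes and a threshold of 0.05. SE is the estimate divided by the root of the F statistic, and 95% intervals are 1.96 SE on either side. The procedure was also run on simulated data, with no outcome given here. Gene levels are CPM on effective library sizes. Likeness used log2 CPM with a prior count of 2. Where a group had no counts, 3 counts over its libraries served as a floor, and ratios with 1 to 3 counts have exact binomial intervals. Table totals ran from 3487772 to 21462900.

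Alternatives were DESeq2 1.42.0, median-ratio size factors, a minimum of 1 CPM in 3 libraries or no filter, a block for the replicate number, the library with 2 group names in either group, only the 2 groups compared, transcript entries summed, Ceacam1 and Ceacam2 added together, and each library of the pair compared left out. Genes named are the 3 members, family genes of at least 1 CPM, up to 4 called genes per list with the smallest p per pair, and the 5 most like genes; any other is named after its values were seen. For 1 gene of the signalling list the values are not reported here, although it stays in the list's counts and medians. The members and lists were chosen with earlier results of these data known. Those concerned wtGMP comparisons, and whether differences between the MLL-AF9 groups entered the choice is not known. Sequences are from RefSeq (GRCm38.p6) and GENCODE (GRCm38).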

Additional observations from a re-analysis of the deposited data

Results flagged for a closer look

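The library whose title names LTearly and whose column names LTlate entered no comparison, yet its Ceacam levels lay above every wtGMP library. Ceacam1 was at 580 CPM (highest wtGMP library 61.2), Ceacam2 at 167 CPM (highest wtGMP library 13.4) and Ceacam10 at 24.2 CPM (0 in all 4 wtGMP libraries). Its Ceacam2 and Ceacam10 levels also exceeded all 14 grouped libraries, while its Ceacam1 level lay below LTlate replicate 2 (622 CPM). Its late neutrophil genes summed to 36300 CPM, above the highest LTearly library (33770). The code part after gr in its title is also that of LTearly replicate 3 and LTlate replicate 2. Those libraries had the highest late neutrophil sum, Ceacam2 and Ceacam10 of their groups. What the shared code means is not known.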

How the results depend on the processing

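Against wtGMP, Ceacam1 and Ceacam2 kept their direction in all alternatives, with 1 library of the pair left out giving 2.0 to 3.54 for Ceacam1 and 2.32 to 3.70 for Ceacam2 (log2, over the 3 groups). The lower bound of Ceacam10 ran from 48.5 to 115 (LTearly), 19.6 to 40.8 (LTlate) and 23.8 to 77.2 (BMTGMP) with 1 library left out. Ceacam1 in LTlate against BMTGMP passed under all alternatives, and in LTearly against BMTGMP under all but 1 left-out library (0.72 to 1.02). Ceacam2 in LTearly against BMTGMP missed the threshold with only the 2 groups fitted (0.96; left-out range 0.71 to 1.13). In LTlate against BMTGMP Ceacam2 missed it with median-ratio scaling (0.996), the replicate block (1.01), only the 2 groups (1.01) and summed entries (1.03), with a left-out range of 0.80 to 1.23. The Ceacam2 difference between LTearly and LTlate turned to 0.0295 with DESeq2, 0.0297 with median-ratio scaling, 0.0290 with summed entries and 0.0255 with the doubly named library in LTearly (left-out range -0.24 to 0.12). The Ceacam10 difference between LTlate and BMTGMP turned to 0.21 with that library in LTlate (left-out range -1.06 to 0.19). Genes called in LTlate against wtGMP were 1549, or 2486 with only the 2 groups (921 to 1333 with 1 library left out, lowest without LTlate replicate 2). For LTearly against LTlate there were 38, or 251 with DESeq2, 141 without a filter, 86 and 0 with the doubly named library in LTearly or LTlate, and 21 with summed entries (4 to 198 with 1 library left out: 22 without LTearly replicate 2, 198 without LTearly replicate 4, and 25, 10 and 4 without LTlate replicates 2, 3 and 4). For LTearly against BMTGMP there were 917, or 1474 with DESeq2 and 407 with only the 2 groups (583 without BMTGMP replicate 1 to 1269 without LTearly replicate 4), and for LTlate against BMTGMP 303, or 558 with DESeq2 (155 without LTlate replicate 2, 177 without BMTGMP replicate 4, and up to 308). The cause was not tested. Median-ratio scaling moved the median of all genes by 0.12 in LTearly against LTlate and by at most 0.09 elsewhere. Replicate numbers did not pair libraries (18 same-numbered pairs, r -0.162 to 0.115, 3 of 14 libraries closest to their own number), and the replicate block ended no other call of the 3 genes. Late neutrophil genes called between LTearly and LTlate were 0, or 3 with DESeq2, 1 with the replicate block and 6 with only the 2 groups; between LTlate and BMTGMP they were 2, or 1 with median-ratio scaling, either other filter or the doubly named library in either group. Signalling genes called between LTearly and LTlate were 1, or 2 with DESeq2 and 0 with the doubly named library in LTlate; between LTearly and BMTGMP 5, or 3 with only the 2 groups; and between LTlate and BMTGMP 1, or 2 with DESeq2, either other filter or the doubly named library in either group, and 3 with only the 2 groups. In wtGMP, depth sets the lower bound of Ceacam10, since 3 counts are worth 0.176 CPM there. Ceacam10 had 193 to 273 counts over each MLL-AF9 group, and its level differed 7.12-fold between BMTGMP libraries.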
